A study of Rattus norvegicus with 9 samples.

Results

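The starting population of the study was a culture of adipose-derived stromal cells (ADSCs), and its 3 libraries, of 9 in the series, are described here without a contrast. The libraries carry the group label Con-ADSCs and were chosen by that label. Their cells came from subcutaneous inguinal fat of GFP-transgenic rats, a pad at the junction of trunk and hind limb. They were released by type 2 collagenase, grown on plastic in DMEM/F12 with 10% fetal bovine serum, and taken at passage 4. The animals' age, sex and strain and the promoter of the GFP transgene are not given in the labels, and GFP itself was not analysed here. Whether Con replicates 1, 2 and 3 were grown from different rats or dishes is not in the labels, so the spread between them may be technical. The other 6 libraries, from cells kept longer in culture or re-isolated from mouse fat, were not used.

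Adipose stromal cells are the plastic-adherent, fibroblast-like fraction of fat that remains after mature adipocytes float off and blood cells are washed away. In the animal they lie along vessels and in the septa of the fat pad, lay down collagenous matrix, and include the precursors of new adipocytes. In culture they can be driven towards fat, bone or cartilage, and they are recognised by a panel of surface proteins (THY1, CD44, NT5E, ENG) together with the lack of blood and endothelial proteins. They are also known for what they secrete: matrix, growth factors and chemokines that act on vessels and immune cells.

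Levels are in the authors' FPKM, a measure scaled to transcript length and to the size of the library. It was used because genes of different length can be compared only per length. How it was derived from the deposited counts is not given, and it is not a plain rescaling of them. A gene was called on where it had at least 1 FPKM in all 3 libraries, and off where it had under 0.1 FPKM in all 3. By this rule 9892 of 21923 genes were on (45.1%), 8899 were off (40.6%) and 3132 lay between, and the median over all genes was 0.543 FPKM. Leaving out 1340 olfactory receptor genes, of which 0 were on, the table was 48.1% on and 36.8% off. The off call depends on the measure: with CPM (counts scaled to the library total) in place of FPKM, the number of off members fell by more than 1.5 times in 26 of 54 gene lists, so off means a low level per length and not a lack of counts. Values listed as 3 numbers are in the order of Con replicates 1, 2 and 3, and values with an error are the mean ± SD over n = 3. The total counts per library were 18355242, 18092551 and 17962188. A count of 0 allows up to 3 counts, or 0.163, 0.166 and 0.167 CPM in those libraries, and this limit and the intervals given for shares cover counting error only. RNA was measured from bulk cells, in which fewer cells of a type and less RNA per cell cannot be told apart.

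The 3 libraries were close but not interchangeable. Across 21923 genes log2(FPKM + 1) correlated at r = 0.989 for replicates 1 and 2, 0.995 for 1 and 3, and 0.993 for 2 and 3, and genes are not independent replicates. The chi-square of their counts divided by its degrees of freedom was 44.6, 14.5 and 28.4 for those pairs, where sampling noise alone gives about 1, so none of the 3 was a second deposit of another. The median coefficient of variation of on genes was 10.1%. Of 4642 genes with a mean of 10 FPKM or more that passed the length rule given below, 107 differed by at least 2-fold in FPKM between the highest and lowest library. Replicate 2 was the library farthest from the others in most of them, above in 26 and below in 39. Replicate 1 stood farthest above in 10 and below in 28, and replicate 3 in 2 and 2. Without replicate 2, 10036 genes were on and 9154 off, and collagens took 9.35% of counts, against 8.74% over all 3 libraries.

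For some genes the deposited counts and FPKM disagreed, which limits what an off call means. For 267 of 21923 genes the length implied by both measures was under 50 or over 100000 bases, or 1 of the measures was 0. This rule was applied to means over the 3 libraries, so it misses disagreement in single libraries. Rpl23, not among the 267, had 840, 885 and 916 FPKM with 11007, 9413 and 9674 counts. Differences between libraries described here are by FPKM unless counts are named. Among genes named after their values were seen, Ddx39b, a helicase of messenger RNA export, had 68.97, 74.9 and 67.3 FPKM and no count, and Aoc3, an amine oxidase, had 32.6, 4.80 and 17.7 FPKM and no count. Rpl38 and Rpl39, ribosomal proteins that every cell needs, were listed at 0 FPKM with 24, 22 and 26 counts and 18, 34 and 25 counts. Of 124 genes in lists of ribosomal, proteasome, RNA polymerase II and chaperonin subunits, which every growing cell uses, 115 were on and 4 off, the others being Polr2h and Polr2l. An off call here therefore says what the table lists, also for genes that every cell needs. Of the lineage, receptor and secreted lists 0, 4 and 2 members had such a disagreement, among them Ramp2, an accessory protein of the adrenomedullin receptor, at 11.5, 11.8 and 13.5 FPKM with no count.

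The stromal marker panel was on throughout. All 7 of the defining stromal markers were on, with a summed level of 1268, 1215 and 1274 FPKM. The share on was 48.1% in the table without olfactory receptor genes. The panel was chosen with earlier results of these data known, so it describes the cells and does not test the stromal label. Thy1 (ENSRNOG00000006604), which encodes the CD90 surface protein, stood at 460.3, 515 and 481 FPKM. Itgb1, the beta1 chain shared by most matrix-binding integrins, stood at 452, 444 and 465 FPKM, and Nt5e, which encodes the ectonucleotidase CD73, at 149, 97.1 and 126 FPKM. Thy1 and Itgb1 were within a narrow range, and Nt5e was lowest in replicate 2. Cd44, the hyaluronan receptor, had 26.6, 29.4 and 25.02 FPKM, and Eng, the TGF-beta co-receptor endoglin (CD105), had 17.3, 16.2 and 21.2 FPKM. Both were on but more than 10 times below Thy1 per length. Pdgfra, the receptor that marks fibroblast lineages, had 96.95, 60.2 and 88.9 FPKM and was lowest in replicate 2.

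Over the wider stromal panel 16 of 17 members were on, and the list's median was 82.0 FPKM. The intermediate filament gene Vim had 3497 ± 213 FPKM, the calcium-binding S100a4 had 1604 ± 129 FPKM, and the tetraspanins Cd63, Cd81 and Cd9 had 611 ± 19.3, 324 ± 9.16 and 132 ± 8.69 FPKM. Alcam, an adhesion molecule, had 80.3 ± 16.6 FPKM and Pdgfrb, the receptor for PDGF-B, had 61.8 ± 7.52 FPKM. Ly6e stood at 31.9 ± 2.37 FPKM, the fibroblast protease gene Fap at 18.9 ± 3.05 FPKM, and Mcam (CD146), a pericyte and endothelial adhesion molecule, at 3.60 ± 1.28 FPKM. These levels spanned about 3 orders of magnitude within a panel whose members are all read as positive. Vcam1, a ligand for leukocyte integrins, was the member that lay between on and off, at 0.902, 1.19 and 2.17 FPKM, and was highest in replicate 3.

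Markers of other cell types in fat were mostly low or off per length. Over all 18 lineage lists 138 of 344 genes were on (40.1%) and 116 off (33.7%). In the table without olfactory receptors the shares were 48.1% on and 36.8% off. Ptprc, the pan-leukocyte gene CD45, had 0, 0.0229 and 0 FPKM, which is 0, 3 and 0 counts. Of 24 haematopoietic genes 1 was on and 18 were off, with a median of 0.0209 FPKM and a summed level of 11.4, 14.2 and 12.7 FPKM. By CPM 2 of the haematopoietic genes were on and 8 off. The exception was Cd14, the co-receptor for bacterial lipopolysaccharide, at 10.2, 12.1 and 11.5 FPKM, while Itgam, Cd163 and Adgre1, genes of myeloid cells, were off. Of 16 endothelial genes 1 was on and 9 were off, with a summed level of 24.7, 20.5 and 22.6 FPKM, nearly all of it from Egfl7, a secreted protein of vessels, at 21.99, 18.1 and 20.1 FPKM. Cdh5, the endothelial cadherin, had 0.115, 0 and 0.108 FPKM, and Vwf, Emcn, Erg, Sox17 and Sox18 were off. By CPM 3 of the endothelial genes were on and 4 off, and without replicate 1 there were 2 on and 11 off by FPKM. Egfl7 was on while the cadherin, the clotting factor and the endothelial transcription factors of the list were at or near 0. Of 12 epithelial genes 0 were on and 5 were off (41.7%, near the share of the table), with a summed level of 3.63, 0.620 and 1.78 FPKM. Without replicate 1 the number of epithelial genes off was 8, and by CPM 1 was on. The Schwann cell regulator Sox10 was off, although Tubb3, Ncam1 and S100b from the same list stood at 86.7 ± 6.99, 25.9 ± 3.67 and 22.7 ± 4.91 FPKM.

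Several contractile genes were among the higher levels of the non-stromal lists. In the pericyte and smooth muscle list 9 of 18 genes were on (50%) and 1 was off (5.56%), with a summed level of 1963, 2678 and 2179 FPKM. The share on was near the 48.1% of the table without olfactory receptors, of which 36.8% were off. By CPM 13 genes of the list were on. Without replicate 2 or without replicate 3 the number off was 2. Acta2 (ENSRNOG00000058039), smooth muscle actin, stood at 445, 632 and 530.1 FPKM and Tagln, the actin-binding protein transgelin, at 836, 1208 and 892 FPKM, both highest in replicate 2. Cald1, Tpm2 and Tpm1, which bind actin in smooth muscle and other cells, followed with 362 ± 18.7, 177 ± 23.4 and 99.6 ± 15.8 FPKM. Several genes used to tell pericytes apart did not follow them: Notch3, Kcnj8, Abcc9 and Cspg4 had 0.178 ± 0.110, 0.778 ± 0.469, 0.702 ± 0.342 and 0.850 ± 0.213 FPKM, and Higd1b was off. Of the 5 mural markers Rgs5, Acta2, Myh11, Cspg4 and Notch3, 2 were on and 0 off, so Rgs5 or Myh11 was on beside Acta2. The 5 summed to 449, 636 and 535 FPKM, most of it from Acta2. Desmin (Des) averaged 1.15 ± 0.415 FPKM and Myocd, the co-activator of smooth muscle genes, 0.306 ± 0.0733 FPKM. Of 12 mesothelial genes 3 were on (25%) and 6 off (50%), and at a threshold of 2 FPKM 1 was on. Msln, Wt1 and Upk1b stood at 6.03 ± 0.841, 1.77 ± 0.202 and 1.72 ± 0.281 FPKM. Upk3b, Muc16 and Calb2 of the same list were at 0. Notch3, Kcnj8, Abcc9, Cspg4, Des and Myocd, named after their values were seen, lay between on and off.

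**Figure D1:**
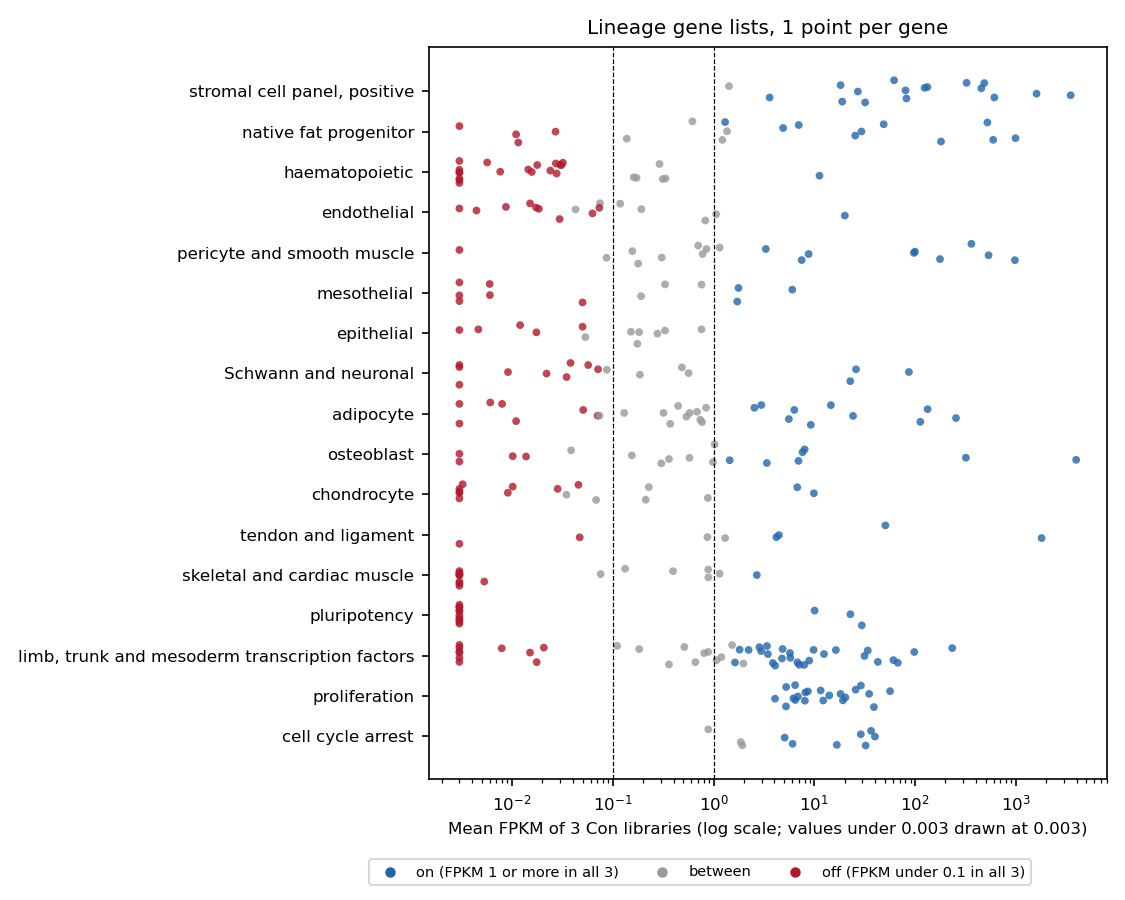
Mean FPKM over the 3 Con libraries (horizontal, log scale) for each gene of 17 lineage lists (rows), with the dashed lines at 0.1 and 1 FPKM; blue, grey and red points are genes on, between and off. All points of the stromal and proliferation rows lie to the right of 1 FPKM, with Vcam1 (1.42 FPKM on average) in grey since 1 library was below 1 FPKM, while most haematopoietic, chondrocyte and muscle points lie to the left.

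Markers of fat progenitors as they are defined in tissue differed widely in level. Of 18 such genes 10 were on (55.6%) and 4 were off (22.2%). The table without olfactory receptors was 48.1% on and 36.8% off, so the share on was near that of the table. Cd34, the sialomucin by which progenitors are sorted from fresh fat, was at 0.192, 0.122 and 0.0979 FPKM, and Dpp4, which marks progenitors of the interstitium, was off at 0.0356, 0.00913 and 0.0363 FPKM. Cd248 (endosialin) had 0 FPKM and no count. In contrast Cd55, an inhibitor of complement used beside DPP4, stood at 494, 503 and 567 FPKM, the microfibril gene Mfap5 at 194, 134 and 214.5 FPKM, and F3, which encodes tissue factor (CD142), at 569, 559 and 658 FPKM. DPP4 and CD55, which are used as a pair to sort progenitors in mouse work, were thus far apart at the level of transcripts. Dcn (decorin) and the guidance factor Sema3c were the other 2 of the 5 highest, at 992 ± 185 and 48.8 ± 7.76 FPKM. The delta-like inhibitor of adipogenesis Dlk1, named after its value was seen, lay between at 1.22 ± 0.598 FPKM.

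The adipocyte list held 10 on (35.7%) and 7 off (25%) genes of 28, with a median of 0.631 FPKM. Both shares were below the 48.1% on and 36.8% off of the table without olfactory receptors. Those on were upstream or general: the early adipogenic transcription factors Cebpd (255 ± 50.9 FPKM) and Cebpb (133 ± 26.1 FPKM), lipoprotein lipase Lpl (122, 76.6 and 139 FPKM), the fatty acid synthase Fasn (24.2 ± 2.60 FPKM) and the droplet coat gene Plin2 (14.6 ± 2.04 FPKM). Pparg (ENSRNOG00000008839), the nuclear receptor that drives the adipocyte programme, lay between on and off, with 1.16, 0.124 and 0.449 FPKM, and passed 1 FPKM in replicate 1 alone. Several markers of the mature adipocyte were lower still, with Adipoq (adiponectin) at 0, 0.0239 and 0 FPKM and Plin1, Lep, Cidec and Cd36 all off. Fabp4, a further adipocyte marker, was not off and lay between. Pparg, Adipoq, Fabp4 and Plin1 together summed to 1.75, 1.10 and 1.43 FPKM. On average Cebpb and Cebpd were therefore more than 100 times above Pparg per length.

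For the skeletal lineages some regulators and some matrix products were on, while the mineralisation genes named here and the main cartilage products were off. In the osteoblast list 7 of 18 genes were on (38.9%) and 4 off (22.2%), beside 48.1% and 36.8% of the table without olfactory receptors. Runx2, the first transcription factor of the bone lineage, had 7.65, 7.01 and 8.26 FPKM, and Sp7 (osterix), which acts after it and was named after its value was seen, had 3.37 ± 1.36 FPKM. Sparc (osteonectin), Atf4, Spp1 (osteopontin) and Msx1 were on at 3966 ± 194, 319 ± 25.2, 8.01 ± 2.40 and 6.96 ± 0.554 FPKM, while the mineralisation genes Ibsp, Dmp1, Sost and Phex were off. Sox9, the regulator of cartilage, had 9.41, 9.35 and 10.9 FPKM and Col11a1 had 6.77 ± 0.777 FPKM, but these were the 2 on genes of 16 in the chondrocyte list (4 by CPM), and Sox5, Sox6, Acan, Col2a1 and Col9a1 were off. The tendon regulator Scx had 4.19 ± 0.346 FPKM, with Tnc, Egr1 and Fmod also on, and Mkx and Kera off. Skeletal and cardiac muscle had 1 on gene of 16, the actin gene Acta1 at 2.68 ± 0.884 FPKM, with Pax7, Myf5, Myog and Actc1 at 0. Without replicate 2, or by CPM, 3 genes of the muscle list were on, and at a threshold of 2 FPKM 0 were. Each library held a regulator of bone, cartilage and tendon above 1 FPKM and no collagen II or aggrecan above 0.1 FPKM.

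Of 48 transcription factors of limb and trunk mesoderm 27 were on (56.3%) and 10 were off, near the 52.2% on among 458 sequence-specific transcription factors of the deposited annotation, and the median was 2.54 FPKM. Prrx1, a homeobox gene of limb and connective tissue mesenchyme, led them with 234, 240.4 and 226 FPKM, followed by its paralog Prrx2 at 98.1 ± 19.5 FPKM. Snai1 and Twist2, regulators of mesenchymal state, had 67.3 ± 3.25 and 42.7 ± 7.91 FPKM. En1, which in mouse embryos marks the ventral limb ectoderm and a lineage of back-skin fibroblasts, had 58.8, 68.2 and 55.6 FPKM, and the libraries were within a narrow range. Tcf21, a factor of visceral fat and heart mesenchyme in the mouse, was at 0 with no count, as was Foxl1, and Meox1 and Foxd1 were off.

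The Hox genes, which record position along the body axis, were used unequally across their clusters. Of 39 genes 13 were on: 0 of 11 in cluster A, 6 of 10 in B, 6 of 9 in C and 1 of 9 in D. The summed level was 0.294, 0.474 and 0.322 FPKM for cluster A and 56.8, 63.3 and 58.3 FPKM for cluster C. Cluster C was therefore more than 100 times above cluster A in every library. Hoxc10 stood highest with 19.8, 22.3 and 20.7 FPKM, then Hoxc8 with 13.1, 13.7 and 16.1 FPKM and Hoxc6 with 10.5, 11.6 and 9.82 FPKM. Hoxc10 was the highest in each library, whereas Hoxc9, between Hoxc8 and Hoxc10 in paralog number, had 5.87, 5.56 and 5.33 FPKM. In cluster B the levels were lower and flatter, with Hoxb2 highest at 4.76 ± 1.63 FPKM and Hoxb9 apart in replicate 2 at 1.41, 4.99 and 1.998 FPKM. Hoxd8 was the on gene of cluster D at 2.03 ± 0.648 FPKM. The 13th paralogs, of the most posterior position, were at most 0.547 FPKM (Hoxc13 in replicate 2). Hoxb2, Hoxb9, Hoxd8 and Hoxc13 were named after their values were seen.

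**Figure D2:**
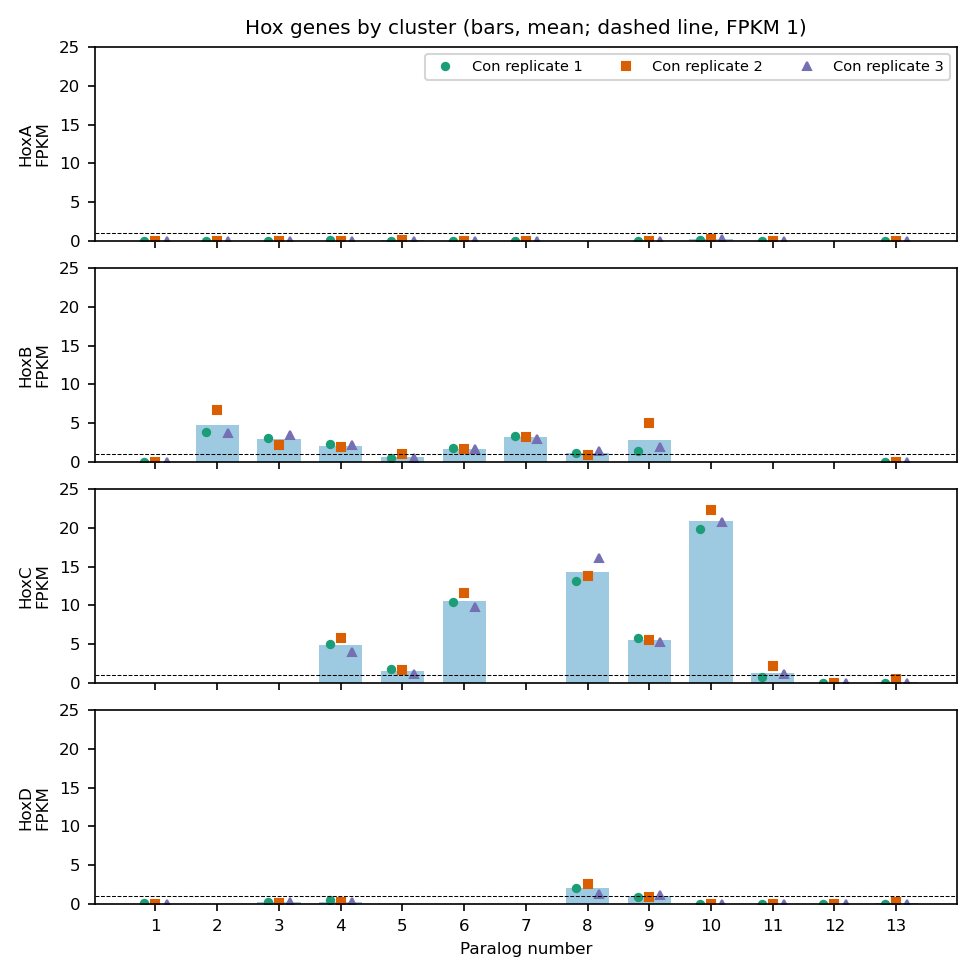
FPKM (vertical, linear scale) of the Hox genes by paralog number (horizontal), a panel per cluster, with bars at the mean of 3 Con libraries and symbols for single libraries; the dashed line is 1 FPKM. Cluster C holds the tallest bars, up to 20.9 FPKM for Hoxc10, and no bar of cluster A reaches the line.

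Genes of the dividing cell were on and core pluripotency genes were at 0. All 21 proliferation genes were on, with a median of 11.6 FPKM and a summed level of 265, 459 and 314 FPKM, highest in replicate 2. Mki67, the antigen of cycling cells, had 4.81, 8.09 and 5.71 FPKM. The cyclin Ccnd3 had 56.4 ± 5.40 FPKM, the nucleotide reductase subunit Rrm2 38.99 ± 12.96 FPKM and the mitotic kinase Cdk1 34.96 ± 12.03 FPKM. The cell cycle inhibitors Cdkn1a (p21) and Cdkn1b (p27) stood beside them at 32.3 ± 6.04 and 28.9 ± 5.93 FPKM. Cdkn2a (p16), named after its value was seen, lay between at 0.545, 3.57 and 1.46 FPKM. Pou5f1, Nanog, Sox2, Lin28a and Dppa3 had 0 FPKM and no count in any library, while Myc and Klf4, which many dividing cells express, had 29.6 ± 1.49 and 22.8 ± 1.23 FPKM.

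Ranked by mean FPKM, the top of the transcriptome belonged to energy, matrix, cytoskeleton and translation. The 40 highest genes, down to 1017 FPKM on average, comprised 11 cytosolic ribosomal proteins, 8 mitochondrially encoded genes, 5 matrix glycoproteins or proteoglycans, 3 S100 proteins or galectins, 3 actin cytoskeleton genes and 2 collagens. Mt-co1 (ENSRNOG00000034234), a subunit of cytochrome oxidase encoded by mitochondrial DNA, was first with 6578, 5763 and 6263 FPKM. Col1a1 (ENSRNOG00000003897), the main chain of type I collagen, was the highest nuclear gene with 5102, 4884 and 5235 FPKM, and S100a6, a calcium-binding protein, was next with 5002, 5282 and 4705 FPKM. For these 3 the highest library was 1.14, 1.07 and 1.12 times the lowest. Mt-atp8, whose coding sequence overlaps that of Mt-atp6, was listed next at 2613, 5654 and 3892 FPKM, but the same libraries gave it only 7, 9 and 14 counts, so that rank was not borne out by its counts.

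Matrix genes ranked among the ribosomal protein genes in these cells. Sparc, a collagen-binding glycoprotein, had 3905, 3809.6 and 4182 FPKM, Col3a1, the chain of type III collagen, had 3509, 1934 and 3042 FPKM, and Thbs1, thrombospondin 1, had 2346, 1998 and 2195 FPKM. Sparc and Thbs1 were stable, and Col3a1 was 1.81 times higher in replicate 1 than in replicate 2. Tnc (tenascin C), the proteoglycan Bgn (biglycan), the collagen chaperone Serpinh1 and Fn1 (fibronectin) stood at 1801 ± 217, 1627 ± 101, 1237 ± 89.9 and 1155 ± 77.3 FPKM. Serpinh1 folds procollagen inside the cell, and the products of the others are secreted.

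The cytoskeletal and housekeeping genes of the same group were Actb (beta-actin) with 2809, 3939 and 2845 FPKM, Vim, Actg1 with 1133 ± 172 FPKM, the actin-binding peptide Tmsb4x with 1967, 2857 and 2142 FPKM, and Gapdh with 1154 ± 94.2 FPKM. Actb and Tmsb4x were both highest in replicate 2. Eef1a1, the elongation factor that brings transfer RNA to the ribosome, had 2529 ± 213 FPKM, and Tpt1, the translationally controlled tumour protein, had 1619.7 ± 49.6 FPKM. Rpl41, Rplp0, Rps18 and Rpsa led the ribosomal proteins with 2219 ± 88.98, 1497 ± 96.4, 1436 ± 177 and 1412 ± 89.4 FPKM, and Rps27, Rps23, Rpl13a, Rpl10, Rps2 and Rps20 lay between 1017 and 1336 FPKM on average. Lgals1 (galectin 1) had 1309.8 ± 122 FPKM. The remaining mitochondrial genes were Mt-cox3, Mt-cytb, Mt-co2, Mt-nd4l, Mt-nd3 and Mt-atp6, from 3803 down to 1426 FPKM on average. A pair of loci annotated as copies, LOC100360522 (ribosomal protein P1-like) and LOC100360087 (ferritin light chain 1-like), had 1665 ± 97.95 and 1575 ± 152 FPKM. How the authors' counting split reads between such copies and their parent genes is not stated, so their levels are uncertain, as are those of ribosomal protein genes with near-identical copies.

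**Figure D3:**
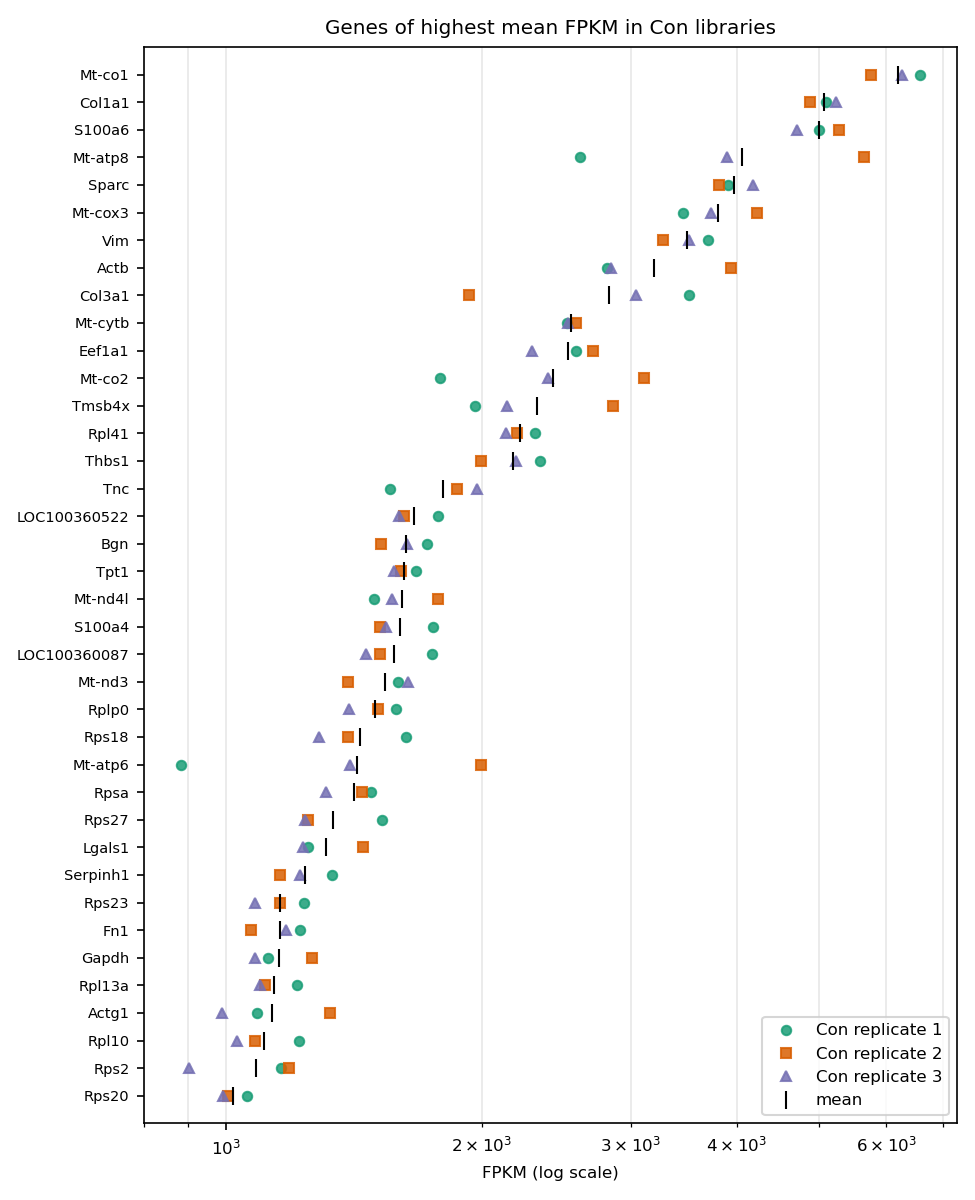
FPKM (horizontal, log scale) of 38 of the 40 genes of highest mean level, ranked downward, with a symbol per Con library and a tick at the mean. Most genes lie close together in the 3 libraries; Mt-atp8, Mt-atp6 and Col3a1 are spread widest, with Mt-atp6 at 884, 1997 and 1397 FPKM.

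The order changed when genes were ranked by counts, which favour long transcripts. Ranked by CPM, 16 of the 40 genes were shared with the FPKM list, and the CPM list held 11 matrix glycoproteins or proteoglycans and 5 collagens. Col1a1 was then first, with 648676, 603498 and 648270 counts, followed by Col3a1, Tnc, Fn1 and Thbs1. Il1rl1, the receptor for interleukin 33, was 40th by counts and was the receptor with the most FPKM among the cytokine receptors listed. By either measure Col1a1 was within the first 2 genes.

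As a share of counts, matrix outweighed every other class examined. Matrix glycoproteins and proteoglycans (65 genes) took 10.2% ± 0.456 of counts, and collagens (43 genes) took 8.74% ± 1.06, at 9.40%, 7.51% and 9.30% in the 3 libraries. Enzymes and chaperones that process collagen took another 1.63% ± 0.0540. The collagen share was lowest in replicate 2 and close to equal in replicates 1 and 3. Of the collagen counts, Col1a1 made up 37.6%, 44.4% and 38.8% and Col3a1 27.1%, 18.1% and 23.8%, while Col12a1, a fibril-associated collagen, made up 15.7%, 15.9% and 17.9%. The 95% Wilson interval of the collagen share in replicate 1 was 9.39% to 9.41%, so counting error was far below the spread between libraries.

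Actin and contractile genes (88 genes) took 3.52%, 4.52% and 3.62% of counts, cytosolic ribosomal proteins (87 genes) 3.80%, 3.61% and 3.39% and translation factors 2.52% ± 0.110. The actin class was highest in replicate 2, where collagens were lowest. The 13 mitochondrially encoded protein genes took 2.07%, 2.23% and 2.19%. Smaller shares went to chaperones and folding enzymes of the endoplasmic reticulum (1.66% ± 0.0672), matrix proteases and their inhibitors (1.59% ± 0.0871), glycolysis (1.39% ± 0.0820), and chemokines, interleukins and complement (0.821% ± 0.145). Nuclear-encoded subunits of oxidative phosphorylation took 0.627% ± 0.0311, less than their mitochondrially encoded partners. Per length the order was different: of summed FPKM, ribosomal proteins took 12.3% ± 0.746, mitochondrially encoded genes 6.88% ± 0.747, matrix glycoproteins 4.60% ± 0.385 and collagens 2.87% ± 0.373. A count share weights a class by the length of its transcripts, and the FPKM share does not.

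**Figure D4:**
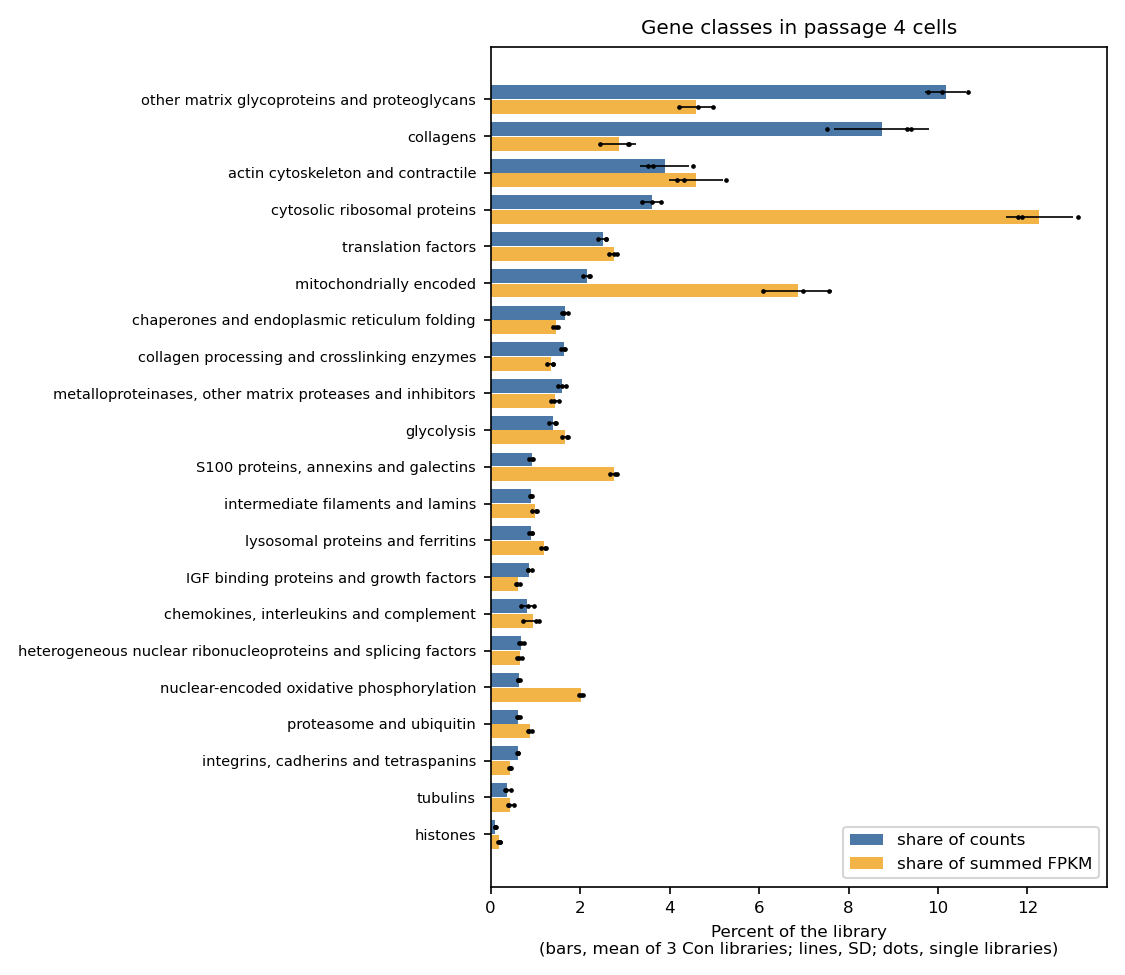
Percent of the library (horizontal, linear scale from 0) taken by 21 gene classes, as a share of counts (blue) and of summed FPKM (orange), with bars at the mean of 3 Con libraries, lines for the SD and dots for single libraries. Matrix glycoproteins (10.2%) and collagens (8.74%) lead by counts, and ribosomal proteins (12.3%) and mitochondrially encoded genes (6.88%) by summed FPKM.

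Among secreted products 211 of 398 listed genes were on (53.0%) and 109 off (27.4%). The table without olfactory receptor genes was 48.1% on. In the collagen list 20 of 42 were on and 16 off, led after Col1a1 and Col3a1 by Col5a2, Col12a1 and Col5a1 at 881 ± 81.4, 795 ± 125 and 263 ± 8.23 FPKM. Off members included the cartilage collagen Col2a1 and the basement membrane chains Col4a4 and Col4a6, which had 11, 11 and 15 counts and 9, 14 and 5 counts. By CPM 5 collagens were off, and 3 had no count in any library. Of 58 matrix glycoproteins 45 were on and 3 off (median 36.03 FPKM), and of 28 proteoglycans 19 were on and 5 off, with Lum (lumican) at 316 ± 146 FPKM and Vcan (versican) at 137 ± 9.42 FPKM. Without replicate 3 the number of proteoglycan genes off was 8, and by CPM it was 2. Elastin (Eln) was not among them: it had 0.482, 0.122 and 0.275 FPKM, while the microfibril gene Mfap5 had 181 ± 41.9 FPKM.

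Several matrix-remodelling genes were abundant, and the highest of them encoded an inhibitor. Timp1, an inhibitor of metalloproteinases, stood at 1018, 682 and 932 FPKM, above the gelatinase gene Mmp2 at 634, 505 and 567 FPKM, and Timp2 and the membrane metalloproteinase Mmp14 stood at 321 ± 19.7 and 209 ± 8.79 FPKM. Timp1 was above Mmp2 in every library, and both were lowest in replicate 2. Adamts1, which cleaves proteoglycans, had 112 ± 6.95 FPKM. In this list 17 of 28 genes were on (60.7%) and 7 off (25%), beside 48.1% and 36.8% of the table without olfactory receptors. Of 110 metalloendopeptidases of the deposited annotation 49 were on (44.5%). The collagenases Mmp1 and Mmp8 and matrilysin Mmp7 had 0 FPKM and no count. In the serine protease axis 18 of 24 were on (75%), whereas of 178 annotated serine endopeptidases 31 were (17.4%). The axis list also holds serpins. Its on members included Serpinh1, F3, the antiangiogenic serpin Serpinf1 (396 ± 47.3 FPKM) and the protease Htra1 (334 ± 9.46 FPKM). The complement gene C7 was at 0.

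Most genes of the angiogenic list were on. In it 18 of 22 were on (81.8%) and 0 were off, or 1 off without replicate 1 or without replicate 3. The table without olfactory receptors was 48.1% on and 36.8% off, and the list was chosen with earlier results known. Figf, which encodes VEGF-D, stood at 285, 176 and 238 FPKM, Adm (adrenomedullin) at 199, 189.9 and 217 FPKM and Vegfa at 107, 108 and 118 FPKM. VEGF-D, a lymphatic growth factor, was above VEGF-A per length in all 3 libraries. Of 25 FGF, EGF and neurotrophin ligands and related factors 11 were on (44%) and 6 off (24%), with the share on near that of the table. Of 64 growth factors of the deposited annotation 24 were on (37.5%). Fgf7, a mitogen of epithelium, had 115, 142 and 165 FPKM, and Hbegf, Pros1, Gas6 and Tgfa followed with 60.3 ± 15.98, 43.8 ± 9.84, 34.7 ± 5.28 and 17.98 ± 3.73 FPKM. Fgf5, Fgf21, Fgf23, Btc and Nrg2 were off.

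The highest members of the TGF-beta, IGF and Wnt lists encoded binding proteins and antagonists rather than ligands. Of 30 genes of the TGF-beta family and its antagonists 20 were on (66.7%) and 5 off (16.7%), or 3 off by CPM. The table without olfactory receptors was 48.1% on and 36.8% off. The follistatin-related Fstl1 led the list (373 ± 4.08 FPKM). The BMP antagonists Grem1 (151, 244 and 244 FPKM) and Nbl1 (121 ± 5.60 FPKM) followed, with the activin chain Inhba at 37.3 ± 20.2 FPKM. Bmp4, Bmp5, Bmp7, Lefty1 and Nodal were off. In the IGF axis the binding proteins Igfbp7, Igfbp6 and Igfbp3 had 163 ± 19.8, 58.5 ± 23.8 and 32.5 ± 5.49 FPKM, while Igf1 lay between at 0.506, 0.412 and 1.14 FPKM and Igf2 was off at 0.0185, 0.0281 and 0.0568 FPKM. Igf1 was named after its value was seen. In the Wnt list 8 of 33 were on (24.2%) and 19 were off (57.6%). By CPM 12 of the Wnt list were off, and 8 had no count in any library. Sfrp1, a decoy that binds Wnt proteins, had 312, 211 and 309.8 FPKM and Dkk3 36.2 ± 8.13 FPKM, and the highest ligand was Wnt5a at 9.01, 38.7 and 18.7 FPKM. Wnt5a differed by more than 4 times between replicates 1 and 2.

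The chemokine and cytokine lists had smaller shares on than the 48.1% of the table without olfactory receptors, and their on members spanned a wide range. Of 31 chemokines 11 were on (35.5%) and 15 off. Ccl2, which attracts monocytes, had 681, 1209.6 and 1070.0 FPKM and Ccl7, a related chemokine, had 671, 870.4 and 971 FPKM. Cxcl12, which holds stem cells and lymphocytes in stroma, had 182, 271 and 212 FPKM. These 3 were lowest in replicate 1. The neutrophil chemokines Cxcl6 and Cxcl1 had 55.9, 246 and 158 FPKM and 34.8, 226 and 99.9 FPKM. Both were lowest in replicate 1 and highest in replicate 2, and the summed chemokine level was 1808, 2966 and 2704 FPKM. Ccl3, Ccl4, Ccl5, Ccl6 and Ccl17, known mainly as products of leukocytes and dendritic cells, were off. Among 39 interleukins and other cytokines 14 were on (35.9%), with Lgals3 at 234 ± 42.9 FPKM, and Il2, Il4, Il5, Il10 and Il12a were at 0. Il33, an alarmin of stromal nuclei, had 243, 259.9 and 249 FPKM, Il6 had 89.98, 192 and 168 FPKM and Csf1, the macrophage growth factor, had 50.9, 68.9 and 50.9 FPKM. Il33 was steady between libraries, while Il6 was lowest in replicate 1. The lowest on members, named after their values were seen, were Cxcl16 among chemokines at 8.74 ± 1.88 FPKM and Il15 among cytokines at 2.42 ± 0.452 FPKM.

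Of 34 adipokine and hormone genes 11 were on and 11 off. Rarres2, which encodes chemerin, had 242, 45.6 and 213 FPKM and was lowest in replicate 2. Stc2, Metrnl and Stc1 had 115 ± 29.4, 77.6 ± 8.91 and 46.2 ± 11.7 FPKM. Adipoq, Lep, Retn, Itln1 and Npy, among them the leading hormones of mature fat, were off.

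Receptor genes were on in 157 of 326 cases (48.2%) and off in 90 (27.6%), close in the share on to the table without olfactory receptors. All 3 PDGF receptor genes were on, and Fgfr1 led the FGF receptors at 70.1, 64.2 and 73.3 FPKM, with Fgfrl1, Fgfr3 and Fgfr2 at 7.997 ± 0.866, 4.73 ± 1.15 and 3.55 ± 0.603 FPKM. Egfr had 28.4, 17.6 and 27.3 FPKM and was lowest in replicate 2, Erbb2 had 1.43 ± 0.0830 FPKM, and Erbb3 and Erbb4 were off. For the insulin and IGF family, Igf2r, Igf1r and Insr had 73.01 ± 0.530, 8.82 ± 1.92 and 3.85 ± 0.514 FPKM. Axl, a receptor for Gas6, and Ptk7, a pseudokinase of Wnt signalling, led the other receptor kinases at 109 ± 10.5 and 109 ± 3.35 FPKM, ahead of Ryk (50.2 ± 4.44 FPKM) and the collagen receptors Ddr2 (30.9 ± 2.07 FPKM) and Ddr1 (14.2 ± 0.568 FPKM). Ntrk3, Alk, Ros1, Musk and Ltk were off. The co-receptors Nrp1 and Nrp2 were the VEGF or angiopoietin receptors of 7 that were on by FPKM (4 were by CPM), at 16.9 ± 1.69 and 16.5 ± 3.26 FPKM.

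Receptors of the TGF-beta family were on in 11 of 14 cases (78.6%) and those of the Wnt family in 10 of 17 (58.8%), beside 48.1% of the table without olfactory receptors. Bmpr2, Tgfbr2, Tgfbr3, Acvrl1 and Acvr1 had 37.5 ± 5.27, 37.5 ± 2.40, 36.3 ± 14.7, 28.04 ± 4.84 and 20.5 ± 0.551 FPKM. The Wnt receptors Fzd1 and Fzd2 had 114 ± 7.76 and 79.4 ± 11.6 FPKM, and Fzd7 had 18.5 ± 2.21 FPKM, while Fzd8, Fzd9, Kremen2 and Lgr6 were off. Of the Notch and Hedgehog receptors 7 of 11 were on. Notch2 had 26.4 ± 1.12 FPKM, whereas Notch1, named after its value was seen, lay between at 0.210 ± 0.0327 FPKM. Gas1, Cdon and Boc, co-receptors for Hedgehog, had 29.3 ± 14.9, 16.8 ± 4.02 and 11.1 ± 2.26 FPKM, and Smo, its transducer, had 16.2 ± 1.54 FPKM.

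Of 29 cytokine receptor genes 19 were on (65.5%) and 5 off (17.2%). The table without olfactory receptors was 48.1% on and 36.8% off. Of 20 cytokine receptors of the deposited annotation 6 were on (30%) and 10 off (50%), so the count depends on which genes are listed. Il1rl1 (ENSRNOG00000014835), the receptor for interleukin 33, stood far above the rest with 445, 384 and 434 FPKM. The gene encodes both a membrane receptor and a soluble decoy, and values per gene do not separate them. Il1r1, the receptor for interleukin 1, Il6st, the signalling chain of the interleukin 6 family, and Il4r had 107 ± 2.06, 98.8 ± 8.85 and 93.5 ± 10.5 FPKM. Il7r, Prlr, Il13ra2 and Csf3r were off. Among TNF receptors 10 of 17 were on, with Tnfrsf12a, the receptor for TWEAK, at 130.4, 190.3 and 143 FPKM and Tnfrsf1a and Ltbr at 94.6 ± 15.96 and 78.8 ± 5.07 FPKM. Toll-like receptor genes were modest: Tlr4, which with Cd14 detects lipopolysaccharide, had 3.90, 2.51 and 4.43 FPKM, Tlr3 had 2.12 ± 0.424 FPKM, and Tlr7, Tlr8 and Tlr9 were off.

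Chemokine receptor genes were mostly off. Of 21 genes 17 were off (81.0%) and 2 were on (9.52%). Other G protein-coupled receptors of the deposited annotation were near this, with 204 of 254 off (80.3%) and 20 on (7.87%). The table without olfactory receptors was 36.8% off and 48.1% on. The 2 on chemokine receptor genes encode atypical receptors that take up chemokines without classical signalling. Ackr3 had 31.5, 21.2 and 32.8 FPKM and Ackr4 had 18.6, 6.11 and 18.3 FPKM. Ccr1, Ccr2 and Ccr4 had 0 FPKM and no count. Integrin genes were on in 10 of 24 cases (16 by CPM), with the collagen-binding Itga11 at 125, 103 and 118 FPKM, Itga5, Itga8 and Itgav at 47.4 ± 2.86, 44.6 ± 11.1 and 39.2 ± 1.86 FPKM, and the leukocyte chains Itgam and Itgal off. Lrp1, an endocytic receptor for proteases and their inhibitors, and the collagen receptor Mrc2 had 179.9 ± 31.7 and 82.2 ± 6.43 FPKM, and the scavenger receptors Cd36, Msr1, Mrc1 and Stab1 were off.

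The G protein-coupled and nuclear receptor lists lay on either side of the 48.1% on of the table without olfactory receptors. In the list of lipid, peptide and purine receptor genes, which also holds accessory proteins, 23 of 54 were on (42.6%). Ramp3, an accessory protein of the adrenomedullin receptor, had 161, 98.6 and 142 FPKM, F2r, the thrombin receptor, had 96.6, 97.5 and 96.2 FPKM, and Avpr1a and Lpar1, for vasopressin and lysophosphatidic acid, had 37.8 ± 2.93 and 34.95 ± 7.37 FPKM. Of 20 adrenergic, muscarinic and serotonin receptor genes 2 were on, Htr2a and Adra1d at 9.40 ± 2.39 and 9.05 ± 3.001 FPKM. Nuclear receptors were on in 21 of 36 cases (58.3%), led by the immediate early gene Nr4a1 (37.8, 86.8 and 87.2 FPKM) and Esrra (27.7 ± 1.59 FPKM), with Nr2f6, Nr1h2 and Rarg at 24.4 ± 4.13, 24.1 ± 1.61 and 18.6 ± 0.333 FPKM.

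To set secreted factors beside their receptors in the same cells, 60 known ligand and receptor pairs were read together. The ligand was on in 55, and both were on in 31. In 10 pairs the ligand was on and the receptor off, and in 14 the receptor lay between. Over the secreted lists 53.0% of genes were on, and over the receptor lists 48.2%. The pairs were chosen and not drawn at random, so these counts describe the chosen pairs only. Il33 and Il1rl1 were both high, at 251 and 421 FPKM on average, and Gas6 and Axl were both on at 34.7 and 109 FPKM. Ccl2 and Ccl7 were on while Ccr2 had no count, and Cxcr5, the receptor of Cxcl13 and another of the 10, was listed at 0 FPKM with 2, 0 and 2 counts. Cxcl12 had its signalling receptor Cxcr4 at 0.127 ± 0.0555 FPKM and its scavenger Ackr3 at 28.5 ± 6.39 FPKM. Vegfa and Figf were on while Kdr, Flt1 and Flt4, the VEGF receptors of endothelium, stood at 0.118 ± 0.0420, 1.06 ± 0.345 and 0.192 ± 0.131 FPKM. Csf1 was on and Csf1r, its receptor on macrophages, at 0.291 ± 0.0771 FPKM. In the other direction Igf1r and Notch2 were on, with Igf1 and Jag1 at 0.687 ± 0.399 and 0.496 ± 0.0294 FPKM. These pairs were named after their values were seen, and a transcript level does not show that protein or binding was present.

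**Figure D5:**
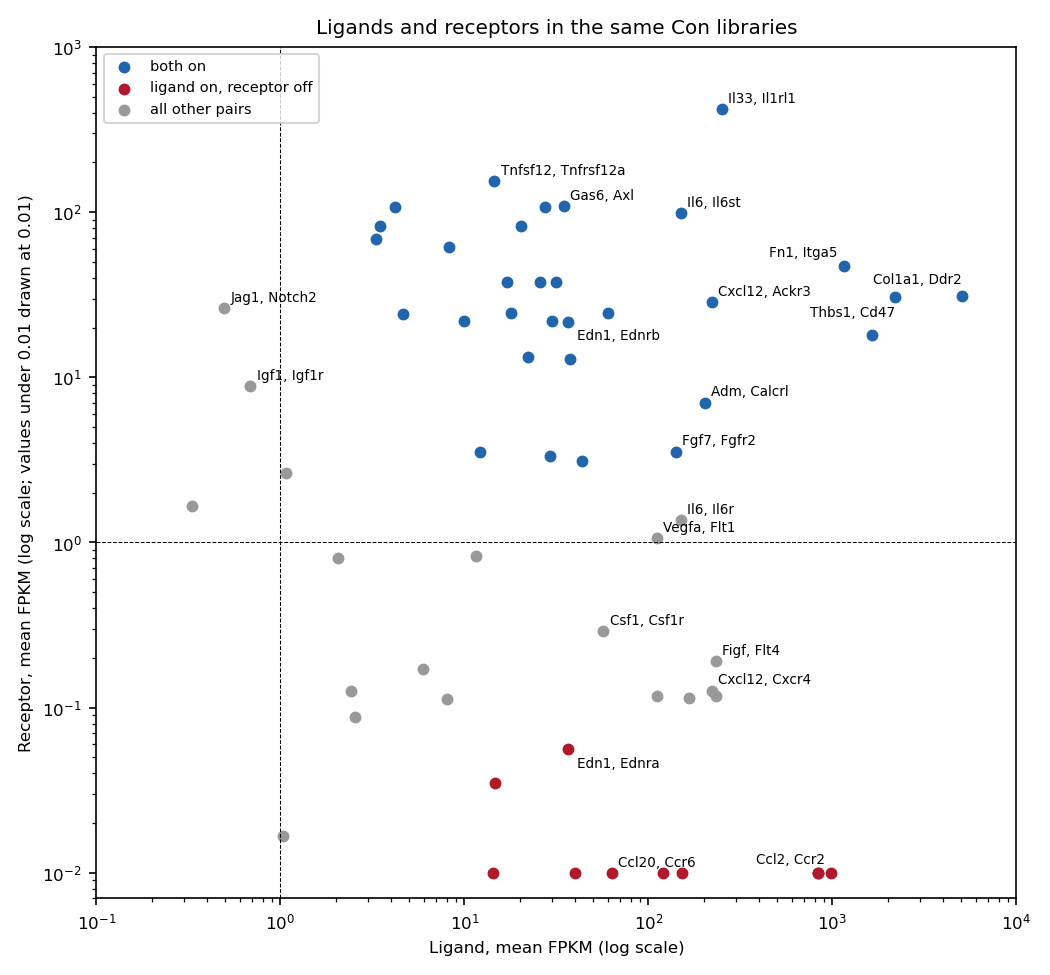
Mean FPKM of the ligand (horizontal) and of its receptor (vertical) for 60 pairs over the 3 Con libraries, both on log scales, with dashed lines at 1 FPKM; blue marks both on, red a ligand on with its receptor off, grey all other pairs. The Il33 and Il1rl1 pair lies at the upper right, and the pairs of chemokines with Ccr2, Ccr6 and Cxcr2 lie along the lower edge.

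Promoter windows of on genes held more CpG dinucleotides, a base pair step that is rare in most of the genome, than those of off genes. For 12456 genes a window of 300 bases, from 250 before to 50 after the start, was read from RefSeq (GRCr8, another assembly than the authors' Rnor_6.0). The median window held 22 CpG in the 7073 on genes with a window (quartiles 15 and 30), and 5 in the 3601 off genes (quartiles 3 and 12), or 6 without olfactory receptors. These are descriptions across genes, which are not independent replicates. Among on genes the median hardly changed with level, from 21 at 1 to 10 FPKM to 23 at 100 FPKM or more. The motif TATAAA, searched on both strands anywhere in the window, was present in 5.82% of on genes, 17.7% of off genes and 9.77% of all 12456. Among on genes of 100 FPKM or more it was present in 12.2%. With its first base 35 to 20 bases before the start, it was found in 0.693% of on genes, 3.97% of those of 100 FPKM or more, 3.72% of off genes and 1.72% of all windows. A match is a description of the letters and not a binding site.

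Promoters of 4 genes show the range of CpG content among on and off genes alike. They were chosen after values were seen, as an on and an off gene with many CpG and an on and an off gene with few, and capitals mark each CpG on the printed strand. Eef1a1, on at 2529 FPKM, had 26 CpG (chr8:88225020-88225319, minus strand), and Hoxa9, off with no count, had 21 (chr4:82656999-82657298, minus strand). Sparc, on at 3966 FPKM, had 3 (chr10:40038767-40039066, minus strand), as did Adipoq, off at 0.00795 FPKM (chr11:91240120-91240419, minus strand). Sequences run 5′ to 3′.
Eef1a1: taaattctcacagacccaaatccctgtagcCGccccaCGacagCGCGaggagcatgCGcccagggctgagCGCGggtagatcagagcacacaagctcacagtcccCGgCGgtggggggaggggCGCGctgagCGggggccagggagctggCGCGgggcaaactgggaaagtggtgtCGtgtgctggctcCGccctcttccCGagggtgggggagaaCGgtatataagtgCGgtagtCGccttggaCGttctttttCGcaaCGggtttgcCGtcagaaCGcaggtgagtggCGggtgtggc
Hoxa9: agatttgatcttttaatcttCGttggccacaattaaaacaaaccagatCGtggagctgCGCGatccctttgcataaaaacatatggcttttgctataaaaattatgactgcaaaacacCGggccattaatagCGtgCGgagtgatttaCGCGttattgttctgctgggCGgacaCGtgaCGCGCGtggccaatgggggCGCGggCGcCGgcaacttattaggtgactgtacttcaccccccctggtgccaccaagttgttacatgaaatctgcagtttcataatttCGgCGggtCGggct
Sparc: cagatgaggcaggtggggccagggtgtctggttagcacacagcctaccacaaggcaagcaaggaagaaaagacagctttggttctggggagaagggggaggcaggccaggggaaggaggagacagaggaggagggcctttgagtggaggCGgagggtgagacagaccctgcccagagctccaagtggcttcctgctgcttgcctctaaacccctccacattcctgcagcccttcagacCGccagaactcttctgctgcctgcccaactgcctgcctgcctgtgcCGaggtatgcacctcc
Adipoq: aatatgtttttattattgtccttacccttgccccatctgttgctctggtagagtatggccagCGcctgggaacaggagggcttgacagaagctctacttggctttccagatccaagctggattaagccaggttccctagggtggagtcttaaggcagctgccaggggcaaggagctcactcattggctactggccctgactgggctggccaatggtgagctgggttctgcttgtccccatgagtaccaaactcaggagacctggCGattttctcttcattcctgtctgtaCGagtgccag
In the group of off Hox genes as a whole the median was 22.5 CpG over 12 windows, near the 22 of on genes, whereas 12 off haematopoietic genes had a median of 5.

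The genes that differed most between libraries held a few secreted factors. Il1a, the alarmin interleukin 1 alpha, had 3.07, 63.1 and 16.1 FPKM, and Cxcl1 moved in the same order. The eosinophil chemokine Ccl11 had 10.9, 3.44 and 28.5 FPKM and was lowest in replicate 2, as were the collagen-associated Cthrc1 at 40.2, 5.95 and 15.9 FPKM and the aminopeptidase Lvrn at 23.4, 3.40 and 19.6 FPKM. Il1a and Cxcl1 were thus high where Ccl11, Cthrc1 and Lvrn were low. The steroid-metabolising reductase Akr1c14 had 24.6, 0.621 and 7.92 FPKM, and Sepw1, a selenoprotein, had 52.8, 1.45 and 2.14 FPKM, high in replicate 1. Pdcd5 had 21.2, 0.162 and 19.1 FPKM, and LOC679739, annotated as a subunit of NADH dehydrogenase, had 57.8, 0.140 and 38.1 FPKM, so both were near 0 in replicate 2 alone. In that library the proliferation and contractile sums were also highest and the collagen share lowest, and the part of these in the other differences was not tested. LOC100912012 (tetranectin-like), the unnamed locus AABR07026893.1 and Aoc3 completed the list. Counts and FPKM disagree for Aoc3. They also part for AABR07026893.1, with 10.3, 4.81 and 32.1 FPKM but 54, 41 and 49 counts, so its difference in FPKM was not borne out by its counts.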

How the data were processed

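RNA was extracted with Trizol and made into stranded poly(A) libraries, per the labels' protocols, and reads were aligned with HISAT2 to Rnor_6.0, per the submitters' processing notes. The deposited table holds raw, whole-number counts by gene, per the file headers. Beside them stand FPKM values that the authors had calculated, per the file headers. Not given in the sources used here are the HISAT2 version, the counter, its strand setting, the gene lengths and the FPKM tool, so levels of overlapping, antisense and near-identical genes are uncertain. Replicates were not pooled. The columns of the 3 Con libraries were used, and those of the other 6 libraries were not.

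Genes were ranked by mean FPKM. On meant FPKM of at least 1 in all 3 libraries and off under 0.1 in all 3. Shares by gene class were taken from counts, with 95% Wilson intervals. No contrast and no test across groups was made, since the Con group stands alone. Of 1176 symbols written in 54 lists, 1147 were found. Pecam1, Robo4, Lepr, Col6a3, Itgb5 and the other symbols not found were not analysed here. The members and lists were chosen with earlier results of these data known. Genes were named by a rule: the 40 of highest mean FPKM, up to 5 on and 5 off members of each list, the whole stromal panel, up to 12 genes that differed most between libraries at a mean of at least 10 FPKM, and 15 fixed genes. Some genes that the rule names are not reported here. The accuracy of the on and off calls in these libraries was not tested. Promoter windows came from RefSeq (GRCr8), matched by symbol for 12456 of 21923 genes. Symbols listed with several windows were left out. Python 3.11.15, pandas 2.3.3, numpy 2.4.6, scipy 1.17.1 and matplotlib 3.10.9 were used.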

Additional observations from a re-analysis of the deposited data

How the results depend on the processing

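Ranking by CPM (counts scaled to the library total) shared 16 of the 40 top genes with the FPKM ranking, and leaving out each library in turn shared 38 to 40. As shares of summed FPKM in place of counts, mitochondrially encoded genes took 6.88%, ribosomal proteins 12.3%, collagens 2.87%, other matrix genes 4.60% and actin genes 4.58%. The ribosomal share of counts was 3.89% with ribosomal protein-like loci added, an alternative chosen after seeing the data. With each library left out, the shares of counts ranged from 2.13% to 2.21% (mitochondrially encoded), 3.5% to 3.70% (ribosomal), 8.41% to 9.35% (collagens), 9.92% to 10.4% (other matrix) and 3.57% to 4.07% (actin), and on and off genes numbered 9961 to 10036 and 9118 to 9154. With on at 0.5 or 2 FPKM there were 10585 or 8823 on genes, with no count as the rule 6726 off genes, by CPM 11052 on and 7524 off, and by both measures together, chosen after seeing the data, 9859 and 8722. Of 864 counts of list members 779 stayed within 1.5 times under the alternatives; those that moved were mainly off counts, which fell in 26 of 54 lists by CPM and in 32 with no count as the rule, and 10 moved on leaving out a library, and in the listed genes 2 changed between on and off, both with CPM. The lowest correlation between libraries was 0.978 over genes on in all 3. Depth sets a floor of 0.163 to 0.167 CPM for off calls. No paired analysis was possible because no groups were compared.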

Other observations

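The chains of type I collagen were listed at unequal levels. Col1a1 stood at 5102, 4884 and 5235 FPKM and Col1a2, whose product joins it in a heterotrimer of 2 alpha1 chains to 1 alpha2 chain, at 71.6, 63.5 and 88.5 FPKM in Con replicates 1, 2 and 3, a ratio of 71.3, 76.9 and 59.2 in FPKM and of 35.4, 57.7 and 39.1 in counts. The ratio was lowest in replicate 3 by FPKM but in replicate 1 by counts. Counts and FPKM thus part for this pair in single libraries, and the size of the ratio is uncertain. For the paired chains of type IV collagen the ratio of Col4a1 to Col4a2 was 1.47, 1.51 and 1.44 in FPKM. For type VI the ratio of Col6a2 to Col6a1 was 1.54, 1.57 and 1.498 in FPKM. These ratios were chosen after values were seen.

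Gene groups taken from the annotation deposited with the table, also after values were seen, differed in how many members were on. Of 110 metalloendopeptidases 49 were on and 50 off, and of 458 sequence-specific transcription factors 239 were on and 141 off. Of 254 other G protein-coupled receptors 20 were on and 204 off, and of 178 serine endopeptidases 31 were on and 124 off. Some names sit in more than 1 group.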
